A study of Mus musculus with 55 samples.

Results

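The livers of 2 mice of the Collaborative Cross line IL-1061 were compared with the livers of every other line. The mice were chosen by their strain label alone, and they were 2 of the 55 mice in the series, the remaining 53 belonging to 28 other lines. Each line is a recombinant inbred strain bred from a common set of founder strains, so line mates carry nearly the same genome while lines differ by their mixture of founder haplotypes. All mice were untreated males kept on chow, and RNA of the whole liver was sequenced. The IL-1061 mice were both 8.3 weeks old and weighed 17.7 g (replicate 1) and 19.6 g (replicate 2). Over all mice the age ran from 8.0 to 11.9 weeks (median 9.1) and the body weight from 12.8 to 38.0 g (median 23.0). Of the lines, 16 including IL-1061 had 2 mice, 5 had 3 mice and 8 had 1 mouse. Line, age, weight and anything else shared by the 2 line mates cannot be told apart in this comparison, and IL-1061 was a single line.

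The liver lobule is divided along the flow of blood from the portal vein to the central vein, and hepatocytes at the opposite ends of that axis run different chemistry. Hepatocytes next to the central vein take up glutamate and ammonium, make glutamine and carry much of the cytochrome P450 machinery. Their programme is kept up by Wnt ligands and R-spondin from the central vein endothelium acting through beta-catenin, whereas the portal side favours urea synthesis, gluconeogenesis and the breakdown of histidine and serine.

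The expression values were FPKM (fragments scaled by transcript length and by the mapped fragments of the library) as deposited, and 11284 genes reached 2 FPKM in at least 1 mouse. The IL-1061 libraries held 22.5 M and 23.7 M estimated fragments, in a series that ran from 20.5 M to 34 M. Across genes, the 2 IL-1061 mice correlated with each other at a Spearman rho of 0.9894, above the median of 0.9755 for other pairs of line mates, and neither reached more than 0.9446 with a mouse of another line. The label was therefore matched by the profiles. Hepatocyte markers summed to 52937 and 53852 FPKM, against 36374 to 89343 in the other mice, and none of the 10 was at 0. In bulk tissue, fewer cells of a type and less RNA per cell cannot be told apart, and this holds for every marker given here.

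A gene was placed outside the range when both IL-1061 mice lay above the highest, or both below the lowest, of the 53 other mice. By this rule 21 genes (0.186% of those measured) lay above the range and 87 genes (0.771%) lay below it. In the 15 other lines with 2 mice, the same rule gave 0 to 389 genes above (median 73) and 2 to 554 below (median 21). The lowest count in each direction came from line IL-1052, whose mates differed from each other, as given below. IL-1061 ranked 8th of 16 by its total of 108 genes, and 4th by the number below. Only 5 of the 15 other lines also had more genes below than above. The balance of the directions rested on the scale. With CPM (counts scaled to the size of the library) after TMM scaling, 62 genes lay above and 64 below, and with TPM 8 lay above and 108 below. The median gene of IL-1061 sat 0.0975 below the other lines in log2 FPKM, 0.1708 below in log2 TPM and 0.01 below in log2 CPM, each taken with 0.5 added. On all 3 scales 7 genes stayed above and 50 stayed below. With 1 IL-1061 mouse in place of both, 65 genes lay above and 158 below (without replicate 2), or 37 above and 274 below (without replicate 1).

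**Figure D1:**
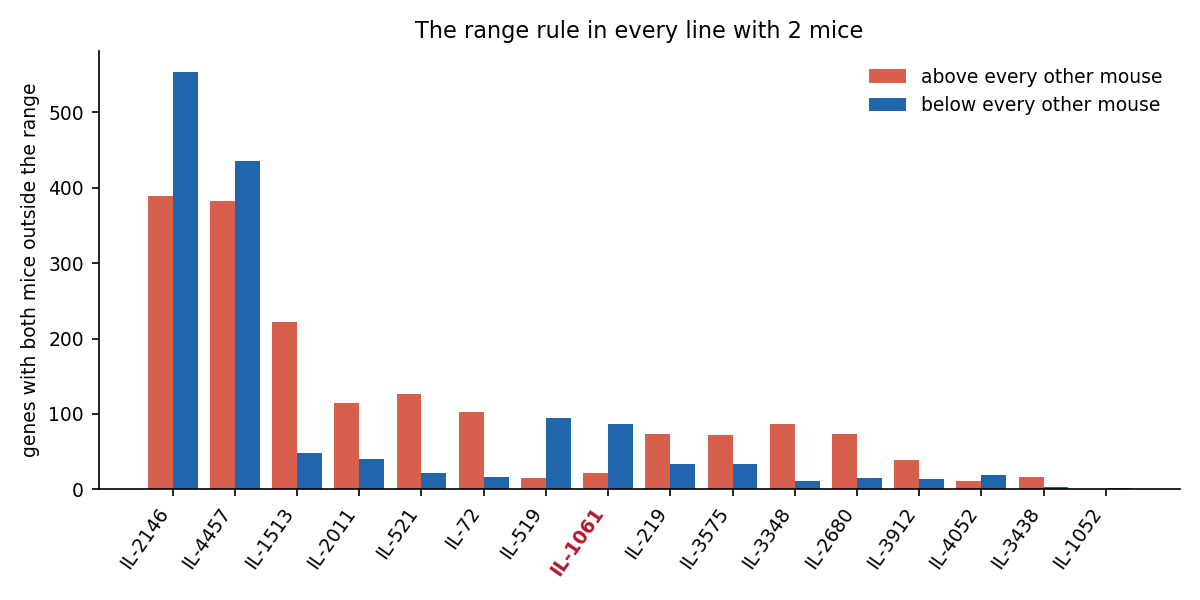
Number of genes (vertical axis) for which both mice of a line lay above (red) or below (blue) all mice of other lines, for each of the 16 lines with 2 mice, ordered by the total. IL-1061, with 21 and 87 genes, stands in the middle of the order and is among the lines whose blue bar is the taller.

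In a model of all 55 mice with line as the factor (edgeR quasi-likelihood test), IL-1061 was set against the unweighted mean of the 28 other lines. At an adjusted p under 0.05, 987 genes (8.75%) were called higher and 619 (5.49%) lower, 310 and 207 of them by at least 2-fold. Without replicate 1 these calls were 320 higher and 156 lower, and without replicate 2 they were 302 and 139. The median log2 fold change of all genes was -0.004. Of the 108 genes outside the range, 105 were also called, and the 3 exceptions were Lace1, Ttll5 and Atg2b. This test measures IL-1061 against the spread between line mates and does not ask whether the line stands out among lines. In a fit without lines IL-1052 and IL-2750, 1224 genes were called higher and 761 lower. Mates within each of these lines differed from each other. For example, Zfp386 had 1.8 and 7.5 FPKM in IL-1052, and 1.59, 8.54 and 1.58 FPKM in IL-2750. For 2810405K02Rik the values were 10.8 and 61.1 FPKM, and 12.2, 46.4 and 6.88 FPKM. Whether the strain labels of these mice are right was not tested. With the line mean as the unit (limma), 3 genes (0.0266%) passed, namely Glul, Tsnax and Gm15710, and with mice as replicates and no line term (edgeR) 43 genes (0.381%) passed. An unadjusted p under 0.05 was reached by 287 genes with the line as the unit. Of 417 pseudogenes tested, 84 were called higher and 9 lower. Among the genes called at least 2-fold higher, 134 had another line at 0 fragments, where the size of the fitted fold change depends on the prior count.

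Of 19 genes listed for the zone around the central vein 17 were measured, and 9 of these were called lower in IL-1061, 8 were not called and none was called higher. Lower calls made up 5.49% of all genes. Below the range lay 5 of the genes, against 0.771% of all genes. Their median log2 fold change was -0.61. The lower calls numbered 6 without replicate 1 or without replicate 2, 2 with mice as replicates (edgeR) and 1 with the line as the unit (limma). The 5 below the range were Glul, Oat, Slc1a2, Cyp2e1 and Lect2, and all 5 stayed below the range on each of the 3 scales.

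Glul (chromosome 1, from 155747074 in NCBIM37) encodes glutamine synthetase, which joins ammonium to glutamate in the last row of hepatocytes before the central vein. It measured 65.4 and 56.6 FPKM in the IL-1061 mice, whereas the other mice ran from 134 through a median of 288 to 501 FPKM. Both IL-1061 mice were thus well under the lowest other mouse, which belonged to line IL-4457. The log2 fold change was -2.19 (SE 0.17, edgeR adjusted p = 1.83e-10). With the line as the unit the adjusted p was 0.0105 by limma.

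Slc1a2, a glutamate transporter of the same cells, stood at 3.65 and 3.79 FPKM, below the 6.01 to 48.2 FPKM (median 15.8) of the other mice. Its log2 fold change was -2.00 (SE 0.27, edgeR adjusted p = 3.31e-06). Oat, the mitochondrial ornithine aminotransferase that feeds glutamate from ornithine, had 32.7 and 32.3 FPKM. The other mice held 63.0 to 741 FPKM of Oat with a median of 193, so that the IL-1061 mice were far below the lowest of them. The log2 fold change of Oat was -2.70 (SE 0.43, edgeR adjusted p = 4.97e-05).

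Cyp2e1, the P450 that oxidises ethanol and acetaminophen, reached 996 and 974 FPKM. In the other mice it was between 1449 and 5645 FPKM with a median of 3104, and the mouse nearest to IL-1061 was again of line IL-4457. The log2 fold change was -1.60 (SE 0.17, edgeR adjusted p = 6.13e-08). Lect2, a protein that hepatocytes secrete and a known target of beta-catenin, had 43.1 and 39.7 FPKM against 63.1 to 202 FPKM (median 109), a log2 fold change of -1.28 (SE 0.19, edgeR adjusted p = 2.58e-05). With the line as the unit, none of Oat, Slc1a2, Cyp2e1 and Lect2 passed by limma.

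**Figure D2:**
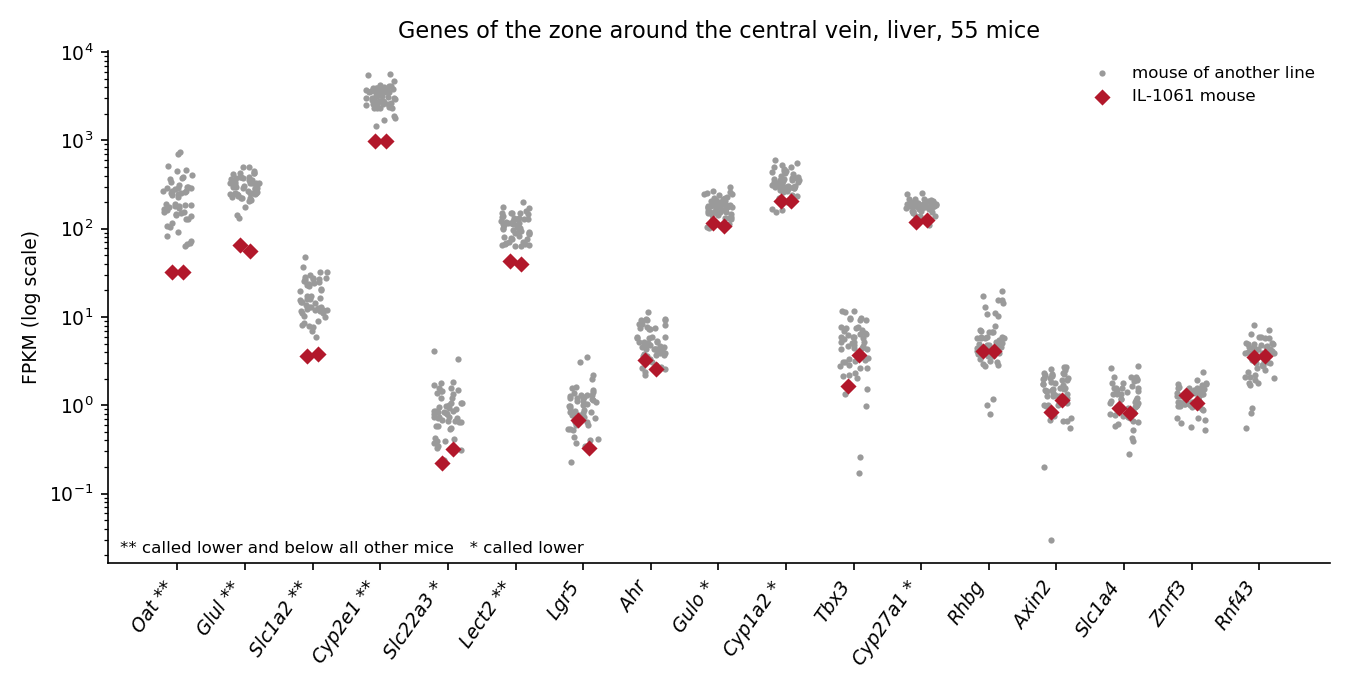
FPKM on a log scale (vertical axis) of the 17 measured genes of the central vein zone, ordered by log2 fold change, with IL-1061 mice as red diamonds and the 53 mice of other lines as grey points. The diamonds lie under all grey points for Oat, Glul, Slc1a2, Cyp2e1 and Lect2 and at least 1 diamond is among them for the other genes.

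Another 4 genes of the zone were called lower while overlapping the other mice. Slc22a3, an organic cation transporter, had 0.22 and 0.32 FPKM against a median of 0.83, with no other mouse below both. Gulo, the last enzyme of vitamin C synthesis, had 115 and 107 FPKM against a median of 180, with 2 of 53 mice below both. Cyp1a2, the P450 that clears caffeine, had 206 and 205 FPKM against a median of 327, with 4 mice below both. The fourth, Cyp27a1, which hydroxylates the side chain of sterols, had 119 and 125 FPKM against a median of 183, with 1 mouse below both. Their edgeR adjusted p values ran from 0.00187 for Slc22a3 to 0.0180 for Cyp1a2.

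The other 8 measured genes of the list were not called, among them feedback targets of Wnt signalling. Axin2, a scaffold that restrains beta-catenin, measured 0.84 and 1.16 FPKM against a median of 1.51 (log2 fold change -0.20, edgeR adjusted p = 0.770). Lgr5, a receptor for R-spondin, measured 0.68 and 0.33 FPKM against a median of 0.93 (log2 fold change -0.77, edgeR adjusted p = 0.0513). The ubiquitin ligases Rnf43 and Znrf3, which remove Wnt receptors, had log2 fold changes of 0.16 and 0.03. Tbx3 differed between the mates themselves, at 1.64 and 3.72 FPKM. Rhbg, an ammonium transporter, had 4.09 and 4.13 FPKM against a median of 4.87 (edgeR adjusted p = 0.377). Slc1a4, a transporter of neutral amino acids, had 0.94 and 0.82 FPKM against a median of 1.12, and Ahr, the receptor for dioxin, had 3.30 and 2.60 FPKM against a median of 4.87. These genes were expressed at a few FPKM, and whether small differences went undetected was not tested.

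Other parts of the pathway were looked up after the values above had been seen. Of 12 such genes measured, 1 was called higher (Fzd8, a Wnt receptor, at 2.95 and 2.54 FPKM against a median of 1.86) and none lower. This is near the shares of all genes, 8.75% higher and 5.49% lower. The median log2 fold change of the 12 was 0.10. Ctnnb1, the gene of beta-catenin, had 56.0 and 49.8 FPKM against a median of 53. Rspo3, the R-spondin of the central vein, had 0.75 and 0.67 FPKM against a median of 1.23 (log2 fold change -0.65, edgeR adjusted p = 0.0701). Wnt2 had 0.70 and 0.67 FPKM against a median of 0.91.

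The promoters of the 5 genes below the range were read for a motif of this pathway. The core of the motif bound by the TCF partners of beta-catenin, CTTTGA, was searched on both strands in a window before each transcription start that RefSeq gives for GRCm38.p6. It was found in 3 of the 5 genes, against 16.0% of all 32851 promoters. The former is counted by gene and the latter by single promoter, so the shares are not like for like. The list names genes under Wnt control and the other members were not read, so this count says nothing of IL-1061. The first match in each, with the motif in capitals as it reads on the strand of the gene, was as follows, and TCAAAG is CTTTGA read on the opposite strand.
Cyp2e1 (chr7:140763657-140763716, plus strand): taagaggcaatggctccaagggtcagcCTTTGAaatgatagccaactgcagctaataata
Slc1a2 (chr2:102706205-102706264, plus strand): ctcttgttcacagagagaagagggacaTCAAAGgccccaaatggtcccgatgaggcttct
Lect2 (chr13:56548539-56548596, minus strand): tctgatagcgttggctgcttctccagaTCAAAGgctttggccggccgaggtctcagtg
The matches began 135, 206 and 31 bases before the start site of the window shown. Whether that start is the one used most in liver was not tested. Glul (chr1:153899679-153899978) and Oat (chr7:132576349-132576648) held no match in their windows, and bases outside the windows were not read. A match is a run of letters only, and no variant of IL-1061 was read.

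Genes of the portal side were not called lower. The list of 14 was drawn up after the values had been seen and is given as a description. Of these, 4 were called higher and none lower, with a median log2 fold change of 0.40. Among all genes 8.75% were called higher and 5.49% lower. Cyp2f2, a P450 of portal hepatocytes, measured 1148 and 1242 FPKM and lay above the 255 to 1080 FPKM (median 689) of the other mice in FPKM, though not in TMM-scaled counts. The log2 fold change of Cyp2f2 was 0.98 (SE 0.17, edgeR adjusted p = 2.07e-04). Hal, the enzyme that begins histidine breakdown, had 144 and 161 FPKM against a median of 94.4, and Cdh1, the gene of E-cadherin, had 12.7 and 14.8 FPKM against a median of 8.35. Sdsl, a serine dehydratase relative, was the fourth. Pck1 and G6pc of gluconeogenesis were not called, with 526 and 480 FPKM against 746 and with 294 and 285 FPKM against 158, respectively. On the list of the urea cycle and amino acid metabolism, 4 of 34 genes were called higher, against 8.75% of all genes, 2 were called lower (Glul and Oat) and 28 were not called. The 4 were Hal, Sdsl, Gldc of glycine cleavage and Uroc1, the step after Hal, the last pair with log2 fold changes of 0.97 and 0.61.

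**Figure D3:**
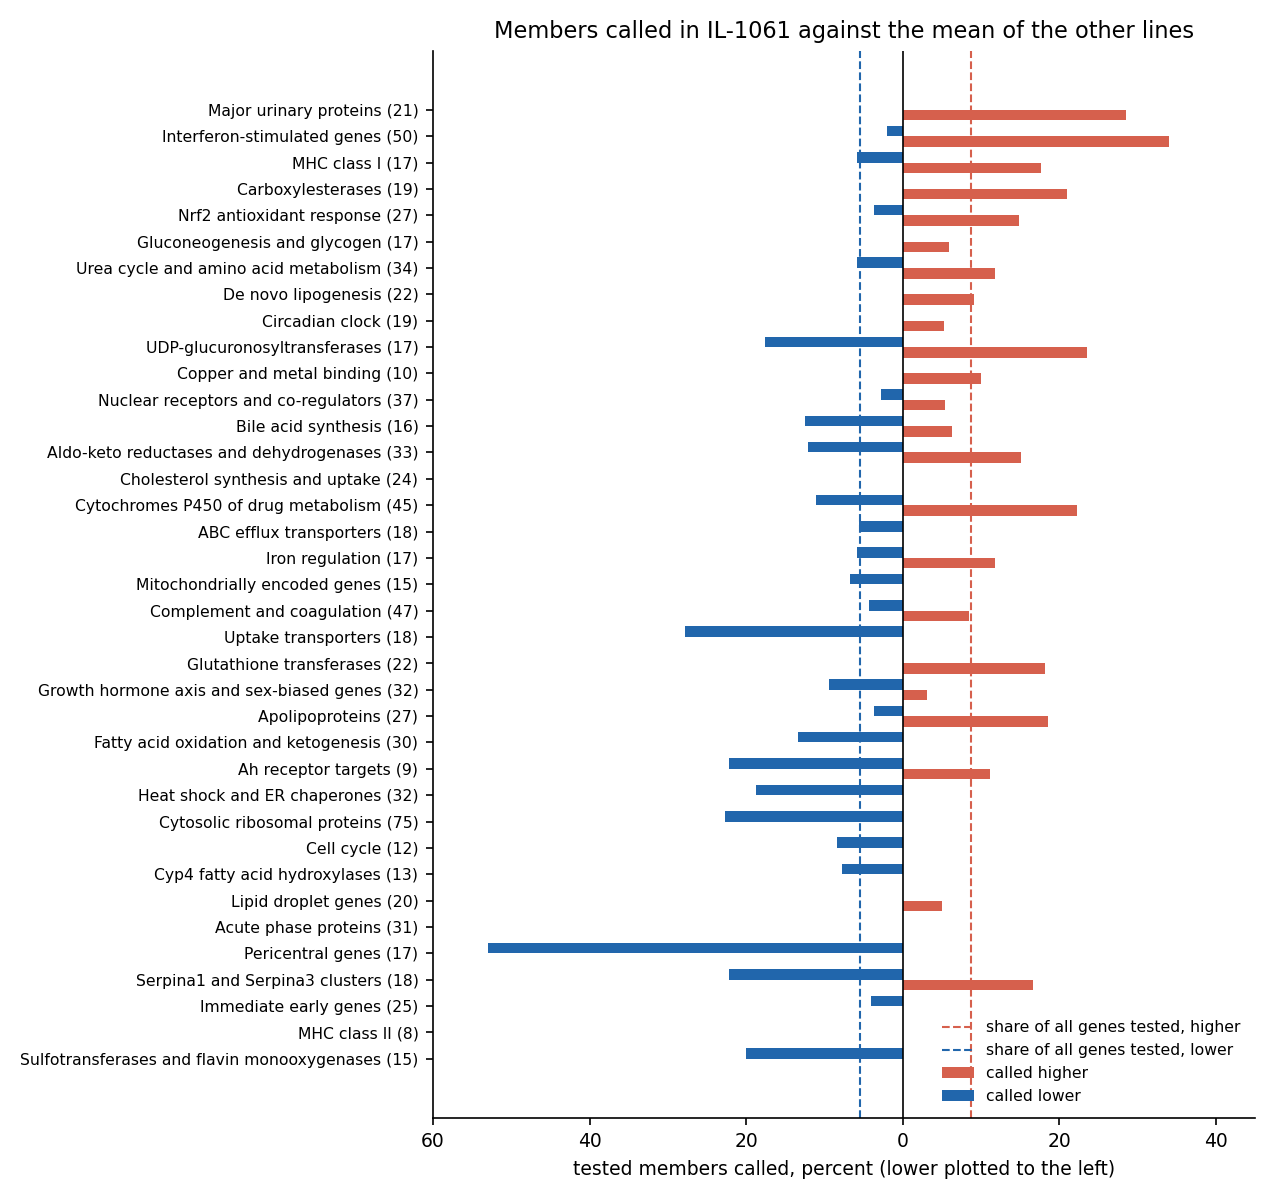
Share of the measured members of gene lists (number in brackets) called higher (red, to the right) or lower (blue, to the left) in IL-1061. Dashed lines mark the shares of all genes, 8.75% and 5.49%. Lists of cell and tissue markers, exocrine pancreas included, and of the drug disposition genes that the study linked to nearby loci are not shown. The blue bar of the pericentral genes, 9 of 17, is the longest on its side.

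Enzymes of drug metabolism changed in both directions. Of 45 cytochromes P450 measured, 10 were called higher and 5 lower, and 2 lay above and 2 below the range. Among all genes, 8.75% were called higher and 5.49% lower, and 0.186% lay above and 0.771% below the range. The median log2 fold change of the cytochromes P450 was 0.01. Cyp3a25 belongs to the P450 subfamily that handles most drugs. It reached 1737 and 1611 FPKM, at the upper edge of the 161 to 1594 FPKM (median 419) of the other mice. The log2 fold change was 2.03 (SE 0.19, edgeR adjusted p = 3.20e-09), and the mice were inside the range in TPM. Its neighbour in the same family, Cyp3a11, had 2463 and 2496 FPKM against a median of 1300, with 6 of 53 mice higher. Cyp2c29 of the same oxidising class had 1508 and 1488 FPKM against a median of 1192. The reads of these subfamilies are shared among near-identical paralogs, so single members are uncertain.

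Cyp2c44, an arachidonic acid epoxygenase on chromosome 19 (from 44079512), was at the other end. It had 8.41 and 6.98 FPKM, just below the lowest other mouse at 9.57 FPKM, which was of line IL-670, and far below the median of 95.2 and the highest of 377 FPKM. The log2 fold change was -3.11 (SE 0.24, edgeR adjusted p = 1.15e-10). For this gene IL-1061 marked the low end of a spread that was wide among the other lines as well.

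The classes of conjugation and transport genes differed in their counts, where 8.75% of all genes were called higher and 5.49% lower. Among 15 sulfotransferases and flavin monooxygenases 3 were called lower and none higher, with a median log2 fold change of -1.17, and among 18 uptake transporters 5 were called lower and none higher. Fmo1, which oxidises nitrogen and sulfur in drugs, had 41.4 and 29.7 FPKM against a median of 82.8. Slco1b2, the organic anion transporter that takes up bile acids and statins, had 214 and 174 FPKM against a median of 320. Among 17 UDP-glucuronosyltransferases 4 were called higher and 3 lower, and among 18 ABC efflux transporters none was called higher and 1 lower. By contrast, 4 of 19 carboxylesterases and 4 of 22 glutathione transferases were called higher and none lower. Gstp1 had 3711 and 4169 FPKM against a median of 2098, and the ester-cleaving Ces1g had 123 and 123 FPKM against a median of 45.2. Ces3a, one of the most abundant carboxylesterases, was not called, at 817 and 851 FPKM against a median of 979 (log2 fold change -0.12, edgeR adjusted p = 0.714).

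Of the genes below the range, 7 received at most 5 fragments in each IL-1061 library, and Sult5a1 and 2810405K02Rik were those with the widest gaps. Sult5a1, a sulfotransferase on chromosome 8 (125666747 to 125682215), received 3 fragments in the 2 libraries together, at 0.05 and 0.09 FPKM. The other mice ran from 4.82 to 128 FPKM with a median of 25.4. That median was 381 times the IL-1061 value, with an exact 95% Poisson interval of 130 to 1850 that covers counting error only. The uncharacterised gene 2810405K02Rik on chromosome 4 (from 154269613) received no fragment in either IL-1061 mouse. In the other mice it held 3.80 to 61.1 FPKM, with a median of 13. Against a floor of 3 fragments in each library, the lowest other mouse was at least 15.4-fold higher. No other mouse was below 3.80 FPKM for either gene. In the other 5 the lowest other mouse was low too. Gm2788, a long non-coding RNA, had 0.21 and 0.09 FPKM against 0.33 to 56.5 FPKM (median 21.9), and Nr4a2, an immediate early nuclear receptor, was at 0 in both against 0.02 to 4.57 FPKM (median 0.11). The remaining 3 were Blnk, Fpr2 and Gp49a.

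**Figure D4:**
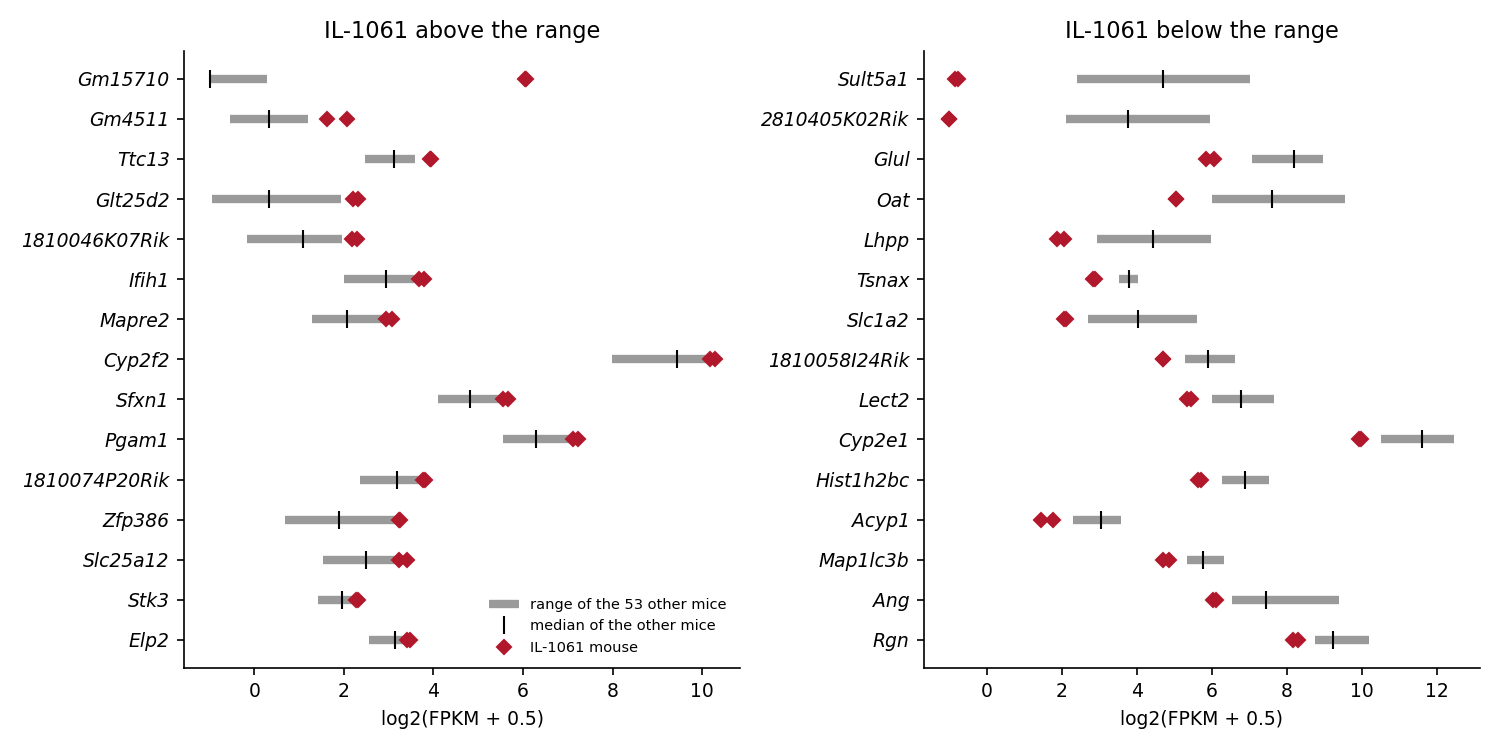
The 15 genes with the largest gaps above (left) and below (right) the range, on log2(FPKM + 0.5), with red diamonds for the IL-1061 mice, grey bars for the range of the 53 other mice and black ticks for their median. Gm15710 on the left and Sult5a1 and 2810405K02Rik on the right are separated from the bars by the widest distances, and most diamonds on the left touch the end of a bar.

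The largest gap above the range belonged to Gm15710, an annotated pseudogene. It had 66.5 and 65.1 FPKM in IL-1061 and at most 0.71 FPKM in any other mouse, where the median was 0. It was called higher by edgeR (adjusted p = 1.04e-06) but not by DESeq2 (adjusted p = 0.309). Its transcript ENSMUST00000121821 on chromosome 5 (92569320 to 92569955, minus strand, NCBIM37) is 636 bases long and is a copy of the coding sequence of Rpl13, a protein of the large ribosomal subunit. The sequences differed at 1 base of 636.

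Rpl13 itself (chromosome 8, 125626250 to 125629144) lay below the range, with 105 and 115 FPKM against 141 to 328 FPKM (median 210). Its log2 fold change was -0.83 (SE 0.14, edgeR adjusted p = 1.19e-04). In CPM without TMM scaling, Rpl13 took 74.1 and 80.5 and Gm15710 took 37.1 and 35.9. The sum of the pair was 111 and 116 CPM, inside the 98.2 to 238 CPM of the other mice, with 1 mouse below both. Gm15710 accounted for 33.4% and 30.9% of the sum in IL-1061 and for at most 0.333% in any other mouse. The authors' program shared reads among near-identical transcripts, so both genes are uncertain, and the sequence carried by IL-1061 was not read.

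**Figure D5:**
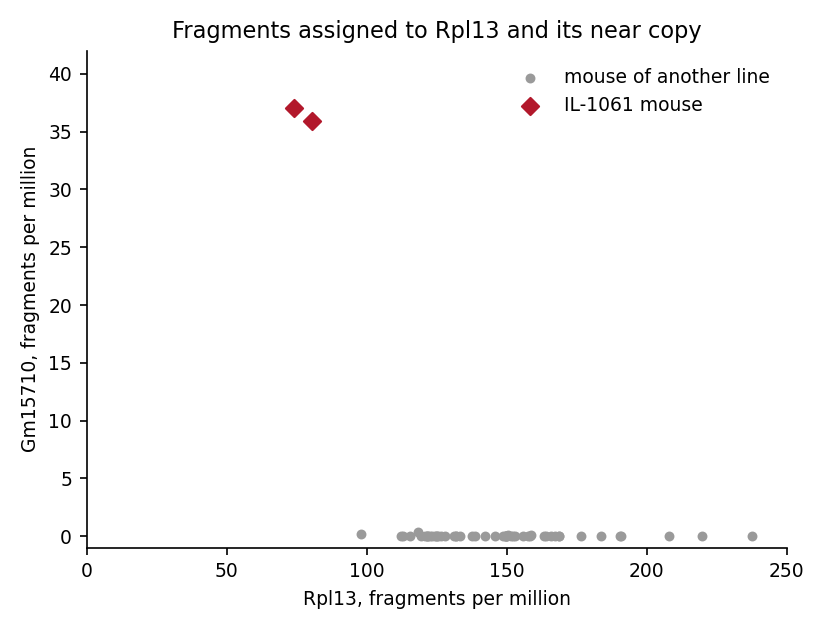
CPM assigned to Rpl13 (horizontal axis) and to its near copy Gm15710 (vertical axis), 1 point per mouse. The IL-1061 mice (red diamonds) sit alone at 37.1 and 35.9 for Gm15710 and to the left of all other mice for Rpl13.

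Of 75 ribosomal protein genes measured, 17 were called lower, 58 were not called and none was called higher, where 5.49% of all genes were called lower. Their median log2 fold change was -0.29, and 5 lay below the range, against 0.771% of all genes. Their summed level was 11029 and 11564 FPKM, under the 12079 to 24569 FPKM of every other mouse, on a scale where the median gene sat 0.0975 low in log2. Leaving out replicate 1 or replicate 2 left 5 or 6 genes called lower, and 7 were called among the lines of at most 9 weeks. With mice as replicates 2 were called lower (edgeR), and with the line as the unit none was (limma). Rps6, a subunit protein phosphorylated downstream of mTOR, had the next largest gap after Rpl13 and Rpl9. It measured 95.7 and 96.1 FPKM against 108 to 429 FPKM (median 287), with a log2 fold change of -1.41 (SE 0.12, edgeR adjusted p = 9.40e-10). Rpl9 had 165 and 155 FPKM against 194 to 521 FPKM. Rpl22 was almost level with the nearest mouse and inside the range in TMM-scaled counts. This family has many processed copies in the genome, so its single values are uncertain in the same way as that of Rpl13.

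Of 50 interferon-induced genes measured, 17 were called higher, 1 lower and 32 were not called, where 8.75% of all genes were called higher. Their median log2 fold change was 0.49. The summed level of the 52 annotated genes of the list, 713 and 654 FPKM, was inside the 309 to 1169 FPKM (median 537) of the other mice. The higher calls numbered 6 or 9 without replicate 1 or replicate 2, and none was left with mice as replicates (edgeR) or with the line as the unit (limma). Only Ifih1, the sensor of double-stranded viral RNA also known as MDA5, lay above the range. It had 13.3 and 12.3 FPKM against 3.53 to 11.4 FPKM (median 7.18), a log2 fold change of 1.04 (SE 0.13, edgeR adjusted p = 1.20e-06). The related sensors Ddx58 and Dhx58 had 9.98 and 8.65 FPKM against a median of 6.15 and 6.94 and 7 FPKM against a median of 3.35. Oasl1, Ifit3 and Irf7 were called higher, with log2 fold changes of 1.97, 1.38 and 1.47; each was inside the range of the other mice. Trim30a was the gene called lower, at 0.78 and 0.59 FPKM against a median of 1.13.

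In lipid oxidation, 4 of 30 genes were called lower and none higher, against 5.49% and 8.75% of all genes. Eci2, an isomerase for unsaturated fatty acids, had 56.1 and 50.9 FPKM against 57.4 to 240 FPKM. It was just under the lowest other mouse and inside the range in TPM. Acot13, a thioesterase, had 18.8 and 17.2 FPKM against 20.5 to 80.4 FPKM.

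Among secreted proteins, the alpha-1-antitrypsin cluster was split. Serpina1a had 663 and 683 FPKM against 733 to 8927 FPKM (median 5502), and Serpina1e had 7694 and 8714 FPKM against a median of 3854. Of 18 genes in the Serpina clusters 3 were called higher and 4 lower, where 8.75% of all genes were called higher and 5.49% lower. Of 21 major urinary protein genes 6 were called higher and none lower, and the summed level of the family was 271159 and 278710 FPKM against 29527 to 340869 FPKM (median 177094). Both families consist of near-identical copies, and their single members are uncertain.

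The growth hormone axis held 1 gene below the range. Socs2, a feedback inhibitor that growth hormone induces, had 0.50 and 0.40 FPKM against 0.71 to 28.2 FPKM (median 6.43), with a log2 fold change of -3.72 (SE 0.91, edgeR adjusted p = 0.00568). Igfbp3 and Igfals, which carry IGF1 in blood, were called lower as well, at 1.73 and 1.44 FPKM against a median of 5.45 and at 17.9 and 22.0 FPKM against a median of 35.3. Of the 32 genes measured, these 3 were called lower, Cyp3a41a was called higher and 28 were not called, which is near the shares of all genes, 5.49% lower and 8.75% higher. Of 32 heat shock and endoplasmic reticulum chaperones 6 were called lower and none higher, among them Dnajb1 at 5.71 and 4.92 FPKM against a median of 11.1.

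Several other genes below the range have roles of their own. Rgn, the calcium-binding lactonase of vitamin C synthesis on the X chromosome, had 314 and 287 FPKM against 425 to 1157 FPKM. Akr1c6, a 17-beta-hydroxysteroid dehydrogenase, had 376 and 318 FPKM against 429 to 1430 FPKM. Ang, a secreted ribonuclease whose annotation overlaps that of Rnase4, had 68.1 and 64.9 FPKM against 92.5 to 668 FPKM, and Rnase4 lay below the range with it. Map1lc3b, a core protein of autophagosomes, had 28.3 and 25.5 FPKM against 39.7 to 79.9 FPKM. In these 4 genes the IL-1061 mice were the lowest of the series on all 3 scales. Hist1h2bc, a histone H2B gene, 1810058I24Rik and Acyp1, an acylphosphatase, had gaps of 1.45- to 1.5-fold.

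Rdh9, Slc13a3 and Cldn2 lay below the range too. Rdh9, a retinol dehydrogenase, had 1.10 and 0.87 FPKM against 1.35 to 68.2 FPKM (median 20.2). Slc13a3, which carries dicarboxylates, had 1.06 and 1.25 FPKM against 1.47 to 14.5 FPKM (median 4.44). Cldn2, a tight junction protein that passes cations, had 13.4 and 12.8 FPKM against 14.5 to 47.6 FPKM (median 25.5). All 3 were called lower by edgeR, the fold change of Rdh9 being the widest at -4.17 on the log2 scale.

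Above the range the gaps were smaller, and after Gm15710 none passed 1.5-fold in FPKM + 0.5. Pgam1, a glycolytic mutase, had 150 and 138 FPKM against 46.1 to 132 FPKM (log2 fold change 0.97, SE 0.07, edgeR adjusted p = 5.30e-11). Glt25d2, which attaches galactose to collagen, had 4.5 and 4.12 FPKM against 0.02 to 3.33 FPKM. Sfxn1, the mitochondrial serine carrier, had 50.4 and 46.3 FPKM against 16.8 to 43.6 FPKM, and Slc25a12, the aspartate and glutamate carrier, had 10.1 and 8.89 FPKM against 2.38 to 8.66 FPKM. 1810046K07Rik had 4.01 and 4.37 FPKM against 0.40 to 3.40 FPKM, and it, Gm4511, Ttc13 and Zfp386 were above the range on all 3 scales, whereas Mapre2, 1810074P20Rik, Stk3, Elp2, Pgam1, Sfxn1 and Slc25a12 were inside it in TPM.

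Few markers of cells other than hepatocytes were called, where 8.75% of all genes were called higher and 5.49% lower. Stab2, the hyaluronan receptor of the sinusoidal endothelium, lay below the range at 2.20 and 1.86 FPKM against 2.29 to 10.7 FPKM, and it was the 1 of 9 endothelial markers called. The 9 summed to 63.9 and 50.5 FPKM, against 34.1 to 132 FPKM (median 75.6). Of 13 Kupffer cell and macrophage markers only C1qb was called, at 3.92 and 3.06 FPKM against a median of 16.8. That list summed to 71.9 and 56.0 FPKM against 30.3 to 849 FPKM (median 130). The 8 neutrophil markers summed to 7.32 and 5.20 FPKM against 1.23 to 2122 FPKM (median 13.8). B and plasma cell markers summed to 3.77 and 4.75 FPKM against 4.18 to 172 FPKM (median 14.1), and none was called. The median log2 fold changes were -0.85 for Kupffer cells, -2.31 for neutrophils and -1.38 for B cells. They were 0.23 for cholangiocytes and 0.97 for T and NK cells, the last on 1 measured gene. Fpr2, a receptor of neutrophils and macrophages, and Blnk, an adaptor of B cells, were below the range at 0.06 and 0.04 FPKM and at 0.07 and 0.04 FPKM, on 1 to 3 fragments a library.

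Exocrine pancreas genes were called higher in 5 of 10 tested, against 8.75% of all genes, and these 5 were carried by replicate 1. Ctrb1, chymotrypsinogen, had 3.52 FPKM in replicate 1 and 0.05 FPKM in replicate 2, and Pnlip, pancreatic lipase, had 1.67 and 0 FPKM. Cela1, an elastase also listed at a median of 22.1 FPKM in the other mice, had 13.7 and 14.1 FPKM, and Prss1 and Amy2a5 were at 0 in both. The list summed to 27.3 and 14.2 FPKM, against 1.24 to 855 FPKM (median 23.0). The part of these genes in any other result was not tested. The range rule asks for both mice by definition, so it does not test that part.

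Genes outside the range were scattered over the genome. They fell in 82 of 527 windows of 5 Mb that held measured genes, and 64 of these windows held a single one. The window of chromosome 8 from 125 to 130 Mb held 5 among 80 measured genes: Rpl13, Sult5a1, Ttc13, Tsnax and 1810063B05Rik. Tsnax, a partner of translin in RNA processing, had 6.85 and 6.58 FPKM against a narrow 11 to 15.9 FPKM in the other mice. Its log2 fold change was -0.92 (SE 0.06, edgeR adjusted p = 1.59e-11). The neighbouring Ttc13, a tetratricopeptide protein, went the other way, with 14.9 and 14.7 FPKM against 5.05 to 11.6 FPKM.

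Windows on chromosome 13 from 20 to 25 Mb and on chromosome 4 from 150 to 155 Mb held 4 each, among 33 measured genes in either (12.1%). The former contained Vmn1r-ps128, Hist1h2bc, Lrrc16a and Acot13. Lrrc16a, a regulator of actin capping, had 0.25 and 0.24 FPKM against 0.33 to 6.84 FPKM (median 3.53). The latter contained Rpl22, A430005L14Rik, 2810405K02Rik and Cdk11b, a kinase of splicing and transcription. Outside these windows, Oat (chromosome 7, 139749158 to 139768081) and Lhpp (139802321 to 139898103), a phosphatase, are neighbours and were both below the range. Lhpp had 3.68 and 3.13 FPKM against 7.21 to 62.1 FPKM (log2 fold change -2.49, SE 0.32, edgeR adjusted p = 1.67e-06). The founder haplotype of IL-1061 in these windows was not analysed here.

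Isoform use was compared as the percentage of a gene's fragments assigned to 1 isoform per gene. Of 7224 isoforms 24 (0.332%) lay outside the range, 17 with a higher and 7 with a lower share, and 2 of their genes were also outside the range in FPKM. Only 2 gaps reached 5 percentage points. ENSMUST00000067563 of Wdyhv1, a glutamine amidase, took 67.6% and 72.1% against 78.0% to 98.2% in the other mice, on 88 and 68 fragments. ENSMUST00000105899 of Gpn2, a small GTPase, took 28.7% and 23.3% against 0% to 17.7%, on 133 and 143 fragments. These shares thus rested on low counts.

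The next largest gaps were those of Zfp157, Gata4, Tug1 and Timm9. Gata4 encodes a transcription factor of liver cells, and its isoform ENSMUST00000121312 took 16.9% and 24.3% against 28.8% to 71.6% (median 51.9%). In Tug1, a long non-coding RNA, ENSMUST00000153313 took 57.4% and 67.1% against 0% to 53.3%. Timm9, a chaperone of mitochondrial import, gave 71.9% and 65.1% to ENSMUST00000166120 against 11.6% to 62.1%. Zfp157 gave 74.2% and 77.5% to ENSMUST00000165137 against 0% to 69.7%. For Ces3a, ENSMUST00000093222 took 80.2% and 80.2%, under the 81.6% to 100% of the other mice.

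The range rule has no margin, and genes near its edge differed little. Parp12, at 14.9 and 13.2 FPKM against a highest other value of 13.2 FPKM, and Tspan31, at 69.7 and 65.2 FPKM against a lowest of 69.9 FPKM, were just inside the rule. Zfp410, at 3.97 and 3.55 FPKM against a lowest of 3.96 FPKM, and Fgl1, at 100.5 and 76.4 FPKM against a lowest of 100.2 FPKM, were just outside it. The median gap over the 108 genes was 1.06-fold, and 8 of them had a gap of at least 1.5-fold.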

How the data were processed

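RNA of 55 untreated male livers was sequenced as stranded paired-end mRNA libraries. The authors quantified them with RSEM 1.2.18 and Bowtie 2 on mm9 (NCBI build 37) with Ensembl gene models, sharing multi-mapping fragments among transcripts. The deposited values used were estimated counts, TPM and FPKM per gene and the percent of each isoform. Gene names and NCBIM37 coordinates came from GENCODE M1, which held 37205 of 37620 gene identifiers. Genes reaching 2 FPKM in any mouse were kept. Estimated counts were rounded and fitted with edgeR 4.0.16 (TMM, quasi-likelihood F test, 1 coefficient per line, 26 residual degrees of freedom), with Benjamini-Hochberg adjustment over all 11284 genes. The SE is the absolute log2 fold change divided by the root of F. DESeq2 1.42.0 and limma 3.58.1, the latter on line means of log2(FPKM + 1), gave alternatives. In simulated data the fit recovered 78 of 100 changes of 2-fold and 96 of 100 of 4-fold, with 8 false calls. All other lines shared the same mean there, so differences between lines were not covered. Line mates are separate mice.

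Groups were the strain labels. The gap of a gene is the ratio of FPKM + 0.5 between the nearest IL-1061 mouse and the nearest other mouse. Named genes were the 15 largest gaps in each direction, up to 5 members per gene list outside the range and called, up to 8 genes of each of the 3 windows with most such genes, the 6 largest isoform gaps, Cyp2c44, Ces3a and the genes nearest the edge of the rule. Other genes named were chosen after their values were seen. The 50 gene lists (1051 symbols, 1026 in the annotation, 1 row a symbol) and the choice of the line were made with earlier results of these data known. For isoforms, the isoform with most distinct levels of each gene was taken, where the gene had at least 1 FPKM in both IL-1061 mice. Depth ran from 20.5 M to 34 M fragments per mouse, and intervals cover counting error only.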

Additional observations from a re-analysis of the deposited data

How the results depend on the processing

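No paired analysis was possible because nothing in the design links a mouse of 1 line to a mouse of another. The labels carry no replicate numbers, and those used here only tell line mates apart. Genes called at least 2-fold higher numbered 547 with no expression filter and 500 with filterByExpr, and DESeq2 called 325 genes at least 2-fold lower. With mice as replicates, 15 genes were higher and 28 lower (8 and 20 by at least 2-fold), with 2 pericentral, 2 ribosomal and 0 interferon-stimulated genes called. With the line as the unit (limma), 1 gene was higher and 2 lower (1 and 1 by at least 2-fold), with 1 pericentral, 0 ribosomal and 0 interferon-stimulated genes. Among lines of at most 9 weeks 7 ribosomal genes were called. Without lines IL-1052 and IL-2750, 1224 genes were higher and 761 lower, with 11 pericentral, 24 ribosomal and 17 interferon-stimulated genes called. Leaving out either IL-1061 mouse gave 302 to 320 genes higher and 139 to 156 lower, 180 to 183 and 78 to 87 of them by at least 2-fold, with 6 pericentral, 5 to 6 ribosomal and 6 to 9 interferon-stimulated genes. The range rule gave 8 genes above in TPM, 62 above in TMM-scaled counts, 1 above and 7 below with a gap of at least 1.5-fold, and 37 to 65 above and 158 to 274 below with 1 IL-1061 mouse. Isoforms outside the range numbered 14 where the gene had at least 5 FPKM and 199 to 236 with 1 IL-1061 mouse. With 1 mouse the rule asks less of a gene, which raises its counts by construction. The cause of the other changes was not tested. The 50 named genes with a fold change kept their direction in every alternative, but of the 49 called, 24 lost the call with mice as replicates and 46 with the line as the unit. Isoforms with at least 12 distinct levels were an alternative chosen after seeing the data. With 2 mice of a single line, differences between this line and others carry no replication of the line.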
